A study of Populus tomentosa with 4 samples.

Results

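MiR1444 is a microRNA family of poplars, and its members here were all names in the deposited table that consist of ptc-miR1444 and a letter. There were 5 such names, miR1444a to miR1444e, of 193 microRNA names listed. They stood for 3 distinct sequences of 107 and for 326 predicted target loci of 10305. The table compared small RNA of shoot tips, named SAM in its header, with small RNA of the leaves around them, in mature trees of Populus tomentosa (Chinese white poplar) grown outdoors. There were 2 libraries per tissue and 4 in all, and no other treatment, genotype or time is named. The labels do not say if separate trees were used, so the adjusted p-values of the authors may rest on technical spread. The authors gave 1 value per tissue for each name, a normalized read abundance formed from both libraries, so no SD accompanies it. The tissues could not be checked against marker genes, since no messenger RNA was measured. The depth of a library is not stated in the table.

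MicroRNAs are short RNAs that guide a protein complex to matching transcripts, which are then cut or silenced. MiR1444 is known from poplars and their relatives as a guide against transcripts of polyphenol oxidases. These are copper enzymes of the chloroplast that oxidise phenols to quinones, as seen in the browning of wounded leaves, and they are linked to defence. MiR397, miR398 and miR408 are more widely conserved microRNAs that act on transcripts of other copper proteins. This group of microRNAs is known to respond to copper supply in plants, and copper supply was not varied here.

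The mature sequences are shown first because the family fell into a pair of related sequences and a sequence of opposite orientation. The seed, bases 2 to 8 from the 5′ end, is in capitals.
miR1444a: uCCACAUUcggucaauguuc
miR1444b and miR1444c: uUCACAUUcggucaacguuc
miR1444d and miR1444e: cGAACGUUgaccgaaugugaa
Each of the 3 seeds occurred in 1 of the 107 listed sequences, so none was shared within the family or with another listed microRNA. The first and second sequences are 20 nt long and the third is 21 nt long.

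MiR1444a and the shared sequence of miR1444b and miR1444c matched at 18 of 20 bases. Counted from 1 at the 5′ end, the differences from miR1444a to miR1444b were C2U, which lies in the seed, and U16C. They are in capitals here.
miR1444a: uCcacauucggucaaUguuc
miR1444b and miR1444c: uUcacauucggucaaCguuc
No genome position is given, so the genome strand behind the sequence of miR1444d and miR1444e is unknown. Read in the opposite direction, that sequence is complementary to miR1444b at 20 of 20 bases, shown in capitals. It carries 1 further base at its 5′ end.
miR1444d and miR1444e: cGAACGUUGACCGAAUGUGAA
Against miR1444a it is complementary at 18 of 20 bases. No other listed sequence came close. Over 104 other sequences, the best ungapped match had 13 bases on the same strand and 12 on the opposite strand.

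All 5 miR1444 names were far lower in shoot tips than in leaves, and the difference was nearly the same for each. In the authors' deposited table, 62.2% of all listed names were lower in shoot tips (120 of 193). Every listed name had an FDR, an adjusted p-value, below 0.05, so 100% of the names in the table were called by construction. Counted once per sequence, 3 of 3 miR1444 sequences were lower, beside 57.9% of the 107 listed sequences.

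MiR1444b and miR1444c, whose values are identical, were at 13289 in leaves and 139.6 in shoot tips in the authors' deposited table. MiR1444d and miR1444e, also identical to each other, were at 12557 and 130.9 in the authors' deposited table. MiR1444a, the least abundant member, was at 394 and 4.04 in the authors' deposited table. Leaf values thus exceeded shoot tip values 95.2-fold for miR1444b, 95.9-fold for miR1444d and 97.6-fold for miR1444a. The size depends on the total used: divided by the listed total without miR159 and miR319, the fold for miR1444b was 21.0. That reduced total keeps miR396, whose listed names were higher in leaves. Dividing by the whole listed total instead shifts the log2 ratio of shoot tips to leaves by -0.389, to a wider gap. Either total holds only names the authors listed as different. The fold for miR1444b also depends on the library: with the higher of the shoot tip libraries recovered from these values left out, it was 156.

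The log2 fold changes of shoot tips over leaves in the authors' deposited table spanned 0.013 across the family. They were -6.54 for miR1444b and miR1444c (FDR 7.26e-64), -6.55 for miR1444d and miR1444e (FDR 2.80e-66) and -6.55 for miR1444a (FDR 9.40e-26). MiR1444a rested on 9 recovered shoot tip reads, so this span is narrower than its counting error. The sequences of miR1444b and miR1444d are complementary, so their values may not be independent. The median of the 5 names was -6.55, beside -2.75 over all 193 listed names and -4.46 over the 120 lower names. Whole tissues were sequenced, so fewer cells with a microRNA and less of it per cell cannot be told apart.

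**Figure D1:**
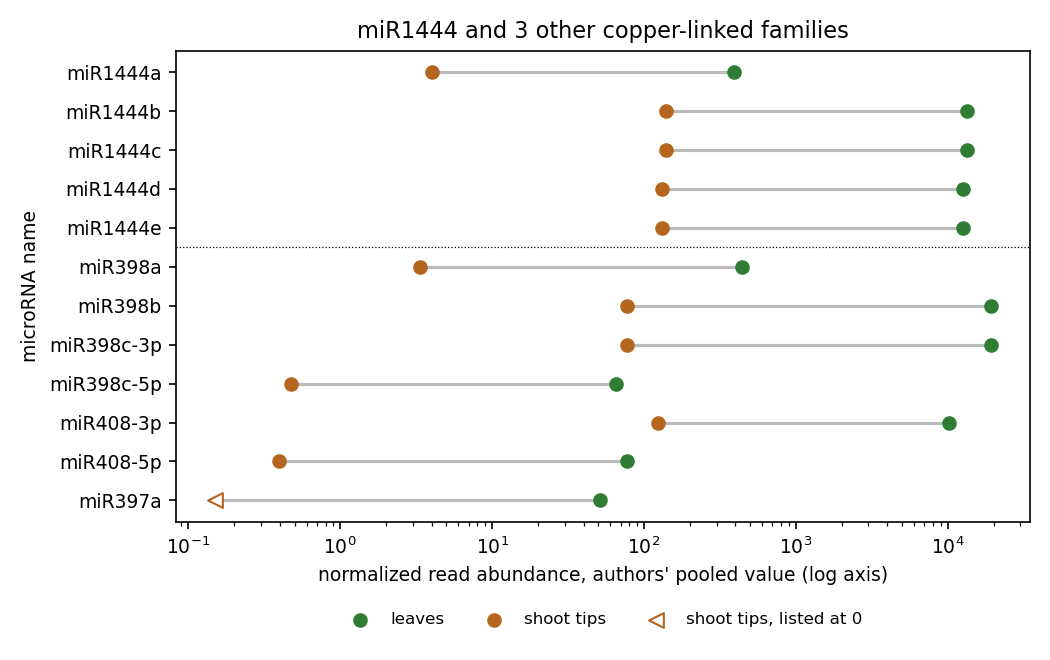
Normalized read abundance (log axis) of the 5 miR1444 names and of the 7 names of miR398, miR408 and miR397, in shoot tips and leaves, as the authors' pooled values with no error. The 5 lines of miR1444 are of nearly equal length, and miR1444a sits lower than the other names in both tissues.

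The tissue difference was shared, while the level was not. In leaves miR1444b was 33.7-fold more abundant than miR1444a, and in shoot tips 34.6-fold. The value of miR1444d equalled 94.5% of that of miR1444b in leaves and 93.8% in shoot tips. Since these sequences are complementary over their common length and the sources used here do not say whether reads were counted by strand, reads of miR1444b and of miR1444d cannot be told apart with certainty. How reads were divided among names of 1 sequence is also not stated.

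Among all listed names, those of miR1444b to miR1444e were prominent in leaves. MiR1444b and miR1444c ranked 10 and miR1444d and miR1444e ranked 12 by leaf level, with ties sharing a rank, and by shoot tip level they ranked 63 and 66. MiR1444a ranked 49 in leaves and 138 in shoot tips. Counted by sequence, miR1444b was the most abundant member, at rank 5 in leaves and 29 in shoot tips. The median listed name had 59.9 in leaves and 19.5 in shoot tips. By log2 fold change, the family took ranks 17 to 20 of the 193 names, and ranks 5 to 8 of the 151 names above 0 in shoot tips.

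**Figure D2:**
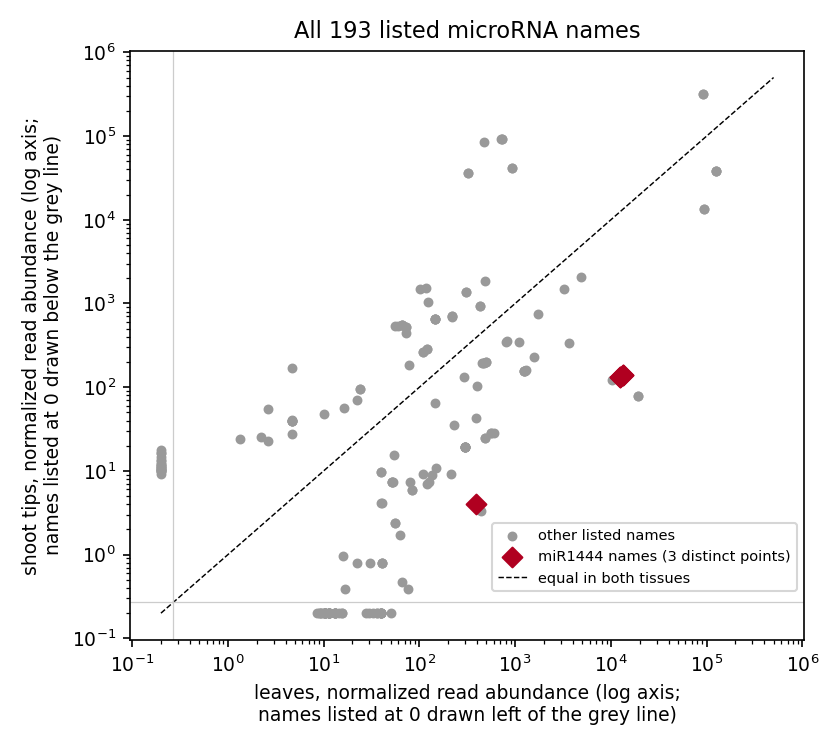
Normalized read abundance of all 193 listed names in leaves (horizontal, log axis) and shoot tips (vertical, log axis), with names listed at 0 drawn beyond the grey lines. The miR1444 names form 3 points far below the line of equal values, and the points of miR1444b with miR1444c and of miR1444d with miR1444e nearly coincide at about the same leaf level.

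The pooled values still held the reads behind them. Each of the 100 distinct shoot tip values between 0 and 5000 could be written as whole reads of a pair of libraries, in which 1 read added 0.394 or 0.476 to the pooled value. For leaves this held for 105 of 106 values, with steps of 0.441 and 0.664. Which replicate each library is remains unknown, and the libraries are called first and second here by the smaller and larger step. The values per library were obtained in this way and are not given by the authors.

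MiR1444a rested on 3 reads in the first shoot tip library and 6 in the second, or 2.36 and 5.71 on the scale of the table. In leaves it rested on 392 and 333 reads, or 346 and 442. The lower leaf library was 60.6-fold above the higher shoot tip library. How many other listed names separate by library in this way was not counted. An exact permutation test of 2 against 2 libraries gave a two-sided p of 0.333. That is the smallest this design allows, and any name without overlap would give it. Exact Poisson 95% intervals of the shoot tip reads were 0.619 to 8.77 and 2.20 to 13.1, and such intervals cover counting error only.

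MiR1444b and miR1444c had 108 reads in the first shoot tip library and 204 in the second, or 85.0 and 194. MiR1444d and miR1444e had 104 and 189 reads, or 81.9 and 179.9. For all 3 sequences the second shoot tip library was the higher, 2.42-fold for miR1444a, 2.28-fold for miR1444b and 2.20-fold for miR1444d. MiR408-3p differed in the same way, with 66.9 and 179.9, and miR398b less, with 55.9 and 99.0. The leaf values of miR1444b and miR1444d were too large for a unique solution, so their leaf libraries are not given. Their pooled leaf values were 68.4-fold and 69.8-fold above the higher shoot tip library.

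The proportions within the family can also be set side by side for each shoot tip library. For every 100 reads of miR1444b there were 2.78 of miR1444a in the first library and 2.94 in the second, and 96.3 and 92.6 of miR1444d. Those of miR1444a rest on 3 and 6 reads, with intervals of 0.619 to 8.77 and 2.20 to 13.1 reads. Such wide intervals cannot show that the proportions are alike. Reads of miR1444b and miR1444d may not be separate, as stated above. The division into libraries used the coarsest of 9 pairs of steps that fitted the shoot tip values; 6 of the 9 gave these same library values for the miR1444 names and 3 gave others. For leaves, 8 of 12 pairs gave the same library values of miR1444a and 4 gave others, so the 60.6-fold gap rests on the pairs chosen. If the pooled value is a plain mean of 2 libraries, a single library cannot exceed 2 times that mean, whatever the division. The pooled leaf value of miR1444b was 47.6-fold above that bound of 279, and that of miR1444a was 48.8-fold above its bound of 8.07. The bound does not limit how low a single leaf library could be.

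**Figure D3:**
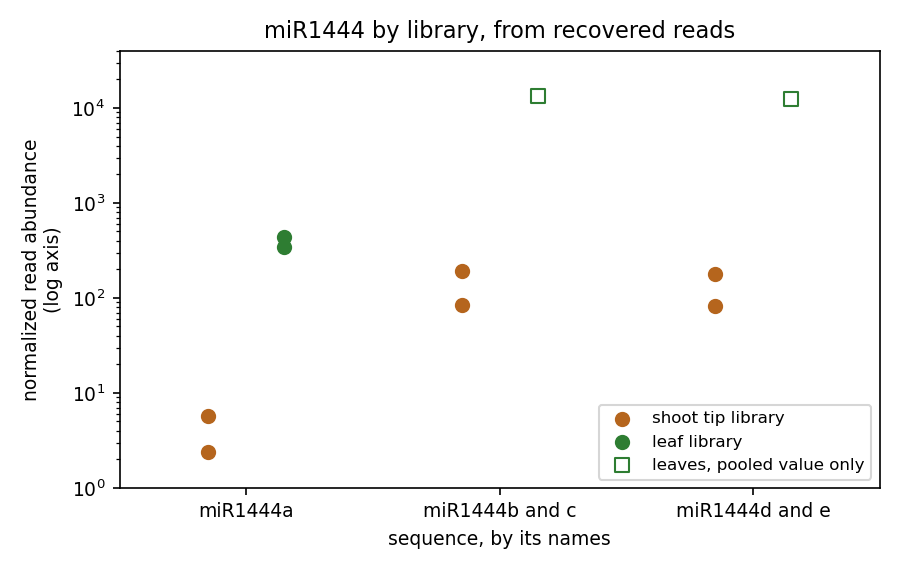
Normalized read abundance per library (log axis) for the 3 miR1444 sequences, from reads recovered with the coarsest steps; open squares are pooled leaf values where no library values were recovered. Shoot tip libraries lie at 2.36 and 5.71 for miR1444a, with leaf libraries at 346 and 442, and the gap between tissues is similar for the other sequences.

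Other microRNAs linked to copper proteins were also lower in shoot tips, in 7 of 7 listed names, beside 62.2% of all 193 listed names. These names are not all separate, since miR398b and miR398c-3p have the same sequence. By the recovered reads, miR398c-5p and miR408-5p rested on 1 shoot tip read each. MiR398b, of the family that acts on copper/zinc superoxide dismutases, was at 19224 in leaves against 77.4 in shoot tips, and the authors' deposited table gave it a log2 fold change of -7.93. MiR408-3p, the arm that acts on laccases, was at 10242 against 123.4, with -6.34 in the authors' deposited table. Among these, miR408-3p had the values closest to those of miR1444d in both tissues. MiR397a, of the laccase family, was at 51.1 in leaves and listed at 0 in shoot tips in the authors' deposited table. Whether these families differ from miR1444 in their tissue difference was not tested.

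Polyphenol oxidases were predicted as targets of the first and second miR1444 sequences and not of the third. Of 140 loci predicted for miR1444a, 12 were described as polyphenol oxidases (8.57%), and of 146 loci predicted for miR1444b and miR1444c, the same 12 (8.22%). Of 96 loci predicted for miR1444d and miR1444e, 0 were. The whole table held 13 polyphenol oxidase loci, so the other loci, 9979 in number, held 1. A locus is listed only if a listed microRNA was predicted for it. Only 6 of the 12 were predicted for another listed microRNA, so the rest are in the table through miR1444 alone. Polyphenol oxidase genes without a prediction are not listed, and their number is unknown. These are counts of predictions, which the authors made by a method not stated in the sources used here, and no transcript was measured.

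The 12 loci carry P. trichocarpa-style identifiers in 2 groups. The first group had 9 loci with the start POPTR_0001s, namely POPTR_0001s39630, POPTR_0001s39650, POPTR_0001s39660, POPTR_0001s39670, POPTR_0001s39680, POPTR_0001s39900, POPTR_0001s39920, POPTR_0001s39940 and POPTR_0001s39950. Between the lowest and the highest of these identifiers the table listed 9 loci for any microRNA, and all of them were these polyphenol oxidases. The other 3 were POPTR_0011s04710, POPTR_0011s10940 and POPTR_0011s10950. Of these, POPTR_0011s10940 and POPTR_0011s10950 are close in number and POPTR_0011s04710 is far from them. Between the lowest and the highest of the 3, 145 of the 148 listed loci were not polyphenol oxidases. All 12 had the same Swiss-Prot description, a chloroplastic polyphenol oxidase precursor of apple. Related copies may share a target site, so these are not 12 independent predictions. Positions in a genome are not given in the table, and 0 of its loci matched the reference gene table.

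The remaining polyphenol oxidase locus, POPTR_0004s03870, had a description from grape and was not predicted for miR1444. It was predicted for the 3 miR393 names, which act on auxin receptors, and for miR6421-5p. In the authors' deposited table these were also lower in shoot tips, with miR393c at 9.25 against 214 and miR6421-5p at 1.74 against 62.3.

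Of the 12 polyphenol oxidase loci of miR1444, 6 were also predicted for another listed microRNA. The same held for 122 of all 326 miR1444 loci (37.4%), and 25.2% of the loci outside miR1444 were predicted for more than 1 sequence. These shares are unlike, since taking loci through a given microRNA favours loci with many predictions. A numbered 24-nt microRNA with no family name was predicted for 4 of the 12, POPTR_0001s39630, POPTR_0001s39680, POPTR_0001s39900 and POPTR_0001s39920. The authors' deposited table gave this microRNA 9.09 in shoot tips and 0 in leaves, with an FDR of 0.0493. MiR159d, of a family that acts on GAMYB-type factors, was predicted for POPTR_0011s04710, and it too was higher in shoot tips, at 1868 against 489 in the authors' deposited table. MiR482c-3p, of a family that acts on disease resistance genes, was predicted for POPTR_0001s39950 and was lower in shoot tips, at 2071 against 4840 in the authors' deposited table.

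**Figure D4:**
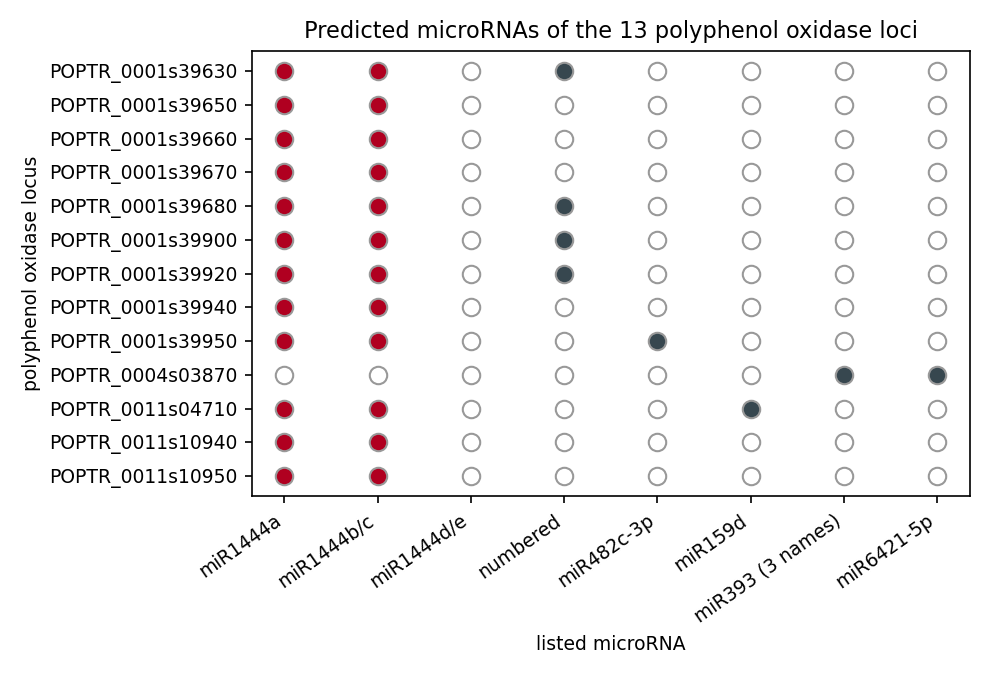
The 13 polyphenol oxidase loci of the table (vertical) and the listed microRNAs they were predicted for (horizontal); a filled circle is a prediction. The columns of miR1444a and of miR1444b with miR1444c are filled for the same 12 loci, the column of miR1444d with miR1444e is empty, and the locus with the grape description is linked to miR393 and miR6421-5p instead.

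Beyond polyphenol oxidases, the first and second sequences shared many predictions. These sequences match at 18 of 20 bases, so their predictions, polyphenol oxidases included, are not independent. The sequences had 55 loci in common, which was 39.3% of the loci of miR1444a and 37.7% of those of miR1444b. The 12 polyphenol oxidases made up 21.8% of the shared loci, and 43 shared loci were others. MiR1444a had 85 loci of its own and miR1444b 91. The third sequence shared 1 locus with each of the others, and 95 of its 96 loci were its own. Only this locus, POPTR_0011s09740, was predicted for all 3 sequences; it is described as a putative callose synthase 8.

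Callose synthases, which make the glucan callose at plasmodesmata and in response to wounding, were the next group among the shared loci, and were named after their values were seen. The shared loci held 6 of the 9 callose synthase loci of the table. These 6 may be related copies that share a target site, so they are not independent predictions. They were POPTR_0001s04970 and POPTR_0003s21690, both described as callose synthase 3, POPTR_0002s05970 and POPTR_0005s22510, both described as callose synthase 7, POPTR_0001s23710, described as callose synthase 2, and the locus predicted for all 3 sequences. Pentatricopeptide repeat proteins were 4 of the 55 shared loci (7.27%), beside 2.89% of the loci outside miR1444. Single examples of the other shared loci were picked after their descriptions were seen, with no background share. They were POPTR_0005s08780, a violaxanthin de-epoxidase of the xanthophyll cycle, and POPTR_0012s03300 and POPTR_0015s05630, both described as CDP1, a protein of plastid division in Arabidopsis.

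Copper proteins of other classes were predicted at single loci. Of 11 classes of copper protein, polyphenol oxidases had 12 loci and 3 further classes 1 locus each. MiR1444a was predicted for POPTR_0018s08380, described as PAA2, an ATPase that moves copper into the thylakoid in Arabidopsis, and for POPTR_0014s15260, a homolog of L-ascorbate oxidase. MiR1444d was predicted for POPTR_0014s04850, described as uclacyanin-3, a blue copper protein. No laccase and no copper/zinc superoxide dismutase was predicted for any miR1444 sequence. Outside miR1444 these classes made up only 0.411% and 0.0501% of the loci, so their absence among 326 loci is near that background. MiR397 had 33 laccases among 179 loci, and miR408 had 4 laccases among 273. MiR398 had 1 copper/zinc superoxide dismutase among 286 loci. Copper proteins in all were 15 of 326 miR1444 loci (4.6%) and 64 of the 9979 other loci (0.641%). Of these, 12 and 1 were polyphenol oxidases, so the gap between the shares rests mostly on that class. As stated for that class, a locus is listed only through a prediction.

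Some predicted loci were shared with the other copper-linked families. MiR1444 shared 2 of its 326 loci with miR397 (0.613%), 4 with miR398 (1.23%) and 3 with miR408 (0.920%), while these families held 1.74%, 2.78% and 2.65% of all loci in the table. The PAA2 locus was among those shared with miR408, and the callose synthase 7 locus POPTR_0002s05970 among those shared with miR397. No polyphenol oxidase was predicted for miR397, miR398 or miR408.

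The sequences also differed in the classes of their other loci. Descriptions as disease resistance proteins were borne by 14 of the 146 loci of miR1444b (9.59%), 3 of the 140 of miR1444a (2.14%) and 1 of the 96 of miR1444d (1.04%), beside 2.66% of the loci outside miR1444. Most of the 14 have identifiers that start with POPTR_0001s, and they may be related copies that share a target site. Enzymes of phenylpropanoid and tannin synthesis were 2 of the 326 loci (0.613%), beside 0.140% outside. These were POPTR_0006s12870 and POPTR_0016s09230, predicted for miR1444a and described as phenylalanine ammonia-lyase, the entry enzyme of phenylpropanoid synthesis. They too may be related copies. Pentatricopeptide repeat proteins, which act on organelle RNA, were 11 of the 326 loci (3.37%), beside 2.89% outside. Receptor-like kinases and those described as serine/threonine-protein kinases were 8 (2.45%) beside 7.55%; other kinase descriptions were not counted. Cytochrome P450 enzymes were 0 of 326 beside 0.892%. No test was run on these shares, because loci predicted for related sequences overlap.

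The loci of miR1444d and miR1444e held other groups, named after their values were seen. Ankyrin repeat proteins were 11 of its 96 loci (11.5%), of which 9 were described as At5g02620, and such proteins made up 0.321% of the loci outside miR1444. UPF0481 proteins, of unknown function, were 8 of 96 (8.33%) beside 0.371% outside. Neither group was predicted for the first or second sequence. In each group many identifiers share a start, POPTR_0019s for ankyrin repeat proteins and POPTR_0108s for UPF0481 proteins. Such loci may be related copies that share a target site, so they are not independent predictions.

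**Figure D5:**
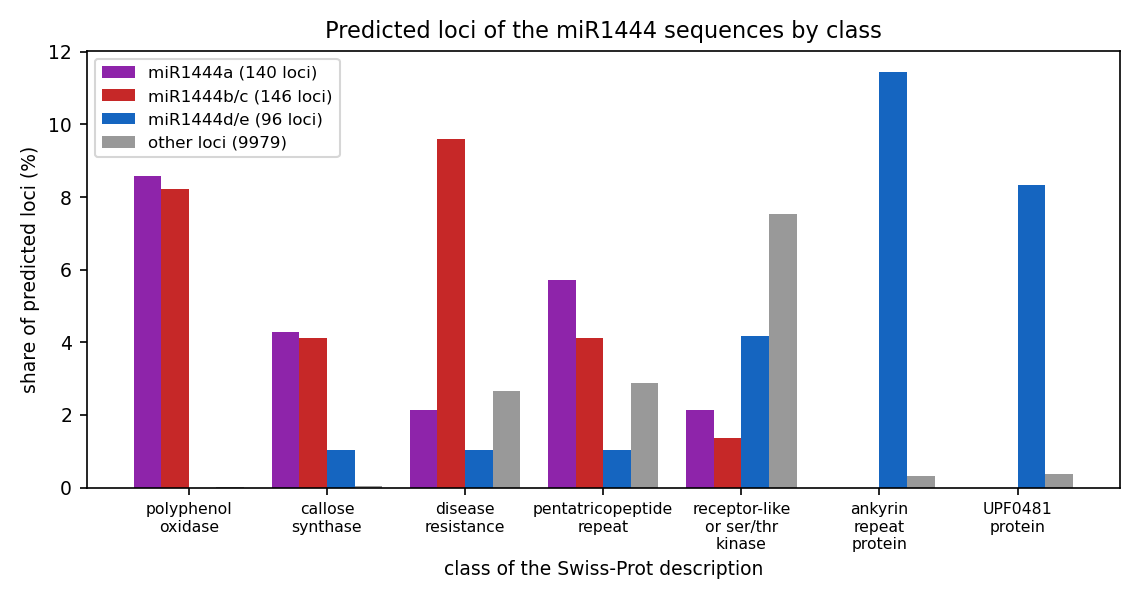
Share of predicted loci (%) in 7 classes of Swiss-Prot description, for the 3 miR1444 sequences and for the 9979 other loci of the table. Polyphenol oxidases and callose synthases stand out for miR1444a and miR1444b, disease resistance proteins for miR1444b alone at 9.59%, and ankyrin repeat and UPF0481 proteins for miR1444d. Loci of the same class may be related copies and are not independent.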

How the data were processed

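Per the labels' protocols, RNA of both tissues was isolated by a Trizol method with a TaKaRa kit and made into Illumina libraries, 2 per tissue. For trimming, aligner, genome build, counting, scaling, target prediction and test, the method is not given in the sources used here. Each name deposited by the authors has 1 signal per tissue, a normalized read abundance whose scale is not stated, the log2 fold change with leaves as the base, and an adjusted p-value called FDR. The table had 27252 lines, 1 per name and predicted locus, of which 1215 repeated another line; each name and locus was read once. Repeats numbered 8 for miR1444a, 3 for miR1444b and 1 for miR1444d.

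No model across names was fitted, since the table has 1 value per tissue; the authors' FDR below 0.05 was the threshold. For miR1444a, recovered in both tissues, an exact permutation test was added. Classes of loci were read from Swiss-Prot descriptions by patterns (18 classes, 11 of copper proteins), which count only descriptions that hold those words; 75 of 326 loci had none. Described were all miR1444 names, all polyphenol oxidase loci, the locus predicted for all 3 miR1444 sequences, all copper protein loci and the names of miR397, miR398 and miR408. Members and lists were chosen with earlier results of these data known. Other groups were named after their values were seen, as stated there.

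Reads were recovered by writing each pooled value as whole multiples of 2 steps between 0.15 and 1.5. A solution was kept if it lay within 1.2 times the rounding error and no other lay within 10 times that. Python 3.11.15, numpy 2.4.6, scipy 1.17.1, pandas 2.3.3 and matplotlib 3.10.9 were used.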

Additional observations from a re-analysis of the deposited data

How the results depend on the processing

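All 5 miR1444 names stayed lower in shoot tips with a pseudocount of 1, with the plain ratio, with an FDR below 0.01 and with the listed total taken without miR159 and miR319. Counting each sequence once gave 3, by construction. The log2 values were -6.57 to -6.29 with the pseudocount and -6.61 to -6.57 with the plain ratio, and -4.43 to -4.39 when values were divided by that reduced total, so the size depends on the total used. Division by the whole listed total would shift the plain-ratio values by -0.389, to a wider gap. Leaving out 1 recovered shoot tip library, an alternative chosen after seeing the data, gave 5 names lower either way, at -6.13 to -6.10 without the first and -7.38 to -7.26 without the second. The polyphenol oxidase count was 12 under either definition. Its share was 3.68% of 326 loci, 4.78% of the 251 with a description, and 5.19% of 231 without the third sequence, which was chosen after seeing the data. No paired analysis was possible because each tissue has 1 pooled column without a replicate number. Count models, a stricter prediction score and transcript models were not run, since the table gives none of these values. Depth limits miR1444a, with 9 shoot tip reads, most.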
